A study of Mus musculus with 4 samples.

Results

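Ciliated airway cells were examined in single-cell RNA data from the lungs of aged mice. They were chosen by a gate on measured UMIs (unique molecular identifiers, counts of captured RNA molecules): a barcode had to carry at least 1 UMI of at least 4 of the 6 genes Foxj1, Ccdc153, Tmem212, Dynlrb2, Rsph1 and Cfap126, and at most 1 UMI each of Ptprc (the leukocyte antigen CD45) and Cdh5 (the endothelial VE-cadherin). Barcodes were kept if they had 500 genes or more, 1000 UMIs or more and a mitochondrial share of 10% or less. Of 68675 kept barcodes, 450 were members. The rest are called other cells below. They hold all other lung cell types together. They also hold 63 barcodes with at least 4 gate genes that exceeded the Ptprc or Cdh5 limit.

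The mice were male, of the C57BL/6 strain and 19 months old at the start. They received either BPTES, a small-molecule inhibitor of glutamine use, or its vehicle DMSO, for 1 month, and each group had 2 libraries. Every library mixed 20000 CD45-negative with 9000 CD45-positive cells of 1 tissue, so the share of any cell type in a library is a share of this mixture. The labels do not say whether the 2 libraries of a group came from different mice, and p-values over libraries measure only the spread between these samples. No group carried a transgene or an engineered allele in the labels.

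Multiciliated cells line the conducting airways and beat many motile cilia that carry mucus out of the lung. Each cilium grows from a basal body around an axoneme of microtubule doublets and a central pair, with outer and inner dynein arms as motors and radial spokes and the dynein regulatory complex as controls. The cells arise from club or basal cells through a deuterosomal stage that makes many centrioles, under GMNC, MCIDAS, MYB, FOXJ1 and RFX factors. Glutamine feeds glutamate, glutathione, nucleotide and hexosamine synthesis.

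BPTES replicates 1 and 2 held 97 and 158 members, and DMSO replicates 1 and 2 held 78 and 117. All 6 gate genes were found in 430 members, 5 in 12 and 4 in 8, while 13 kept barcodes just outside the gate had 3. The limit on Ptprc and Cdh5 had removed 63 of 513 barcodes with at least 4 gate genes. Members were deep, with medians of 36718 and 33720.5 UMIs per cell with BPTES and 28631.5 and 30154 with DMSO, against 14232 to 16089.5 in other cells. The BPTES medians both lay above the DMSO medians, so depth per member moved with treatment. The median mitochondrial share was 3.22% to 3.42% in members and 1.37% to 1.50% in other cells. Summed over members, a library held between 2181546 and 5454455 UMIs. Libraries shared 65 to 104 kept barcodes per pair, as barcode sequences only, and no barcode was a member in more than 1 library.

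The label of ciliated cells held against markers that the gate did not use, as a description. Levels are given as CPM (UMIs of a gene scaled to a fixed total per library), with TMM library sizes for single genes. The gate genes themselves chose the cells and are not results. Apart from them, 251 of the 2220 genes with at least 100 CPM in members were at least 100 times higher there than in other cells. The 20 genes with the highest ratio lay between 595 and 670 times, in means over the 4 libraries. They included Sntn, which encodes sentan of the ciliary tip, Dnah5, the heavy chain of the outer dynein arm that is mutated in primary ciliary dyskinesia, Ttll6, an enzyme that adds glutamate chains to tubulin, and Agr3, a disulfide isomerase of airway ciliated cells. Sntn was at 488, 465, 506 and 542 CPM in BPTES replicates 1 and 2 and DMSO replicates 1 and 2, and at 0.379 to 1.28 CPM in other cells. Dnah5 was at 1397, 1311, 1454 and 1381 CPM, and at 0.981 to 4.30 CPM in other cells. Within single libraries the ratios of the 20 ran from 305 (Dnah5, BPTES replicate 2) to 2152 (Gm19935, DMSO replicate 1). Other cells held 26 barcodes with at least 4 gate genes in BPTES replicate 2 and 5 in DMSO replicate 1. Their part in these ratios was not tested. The remaining leading genes were 1700024G13Rik, Fam81b, D430036J16Rik, Ccdc113, Fam216b, Fam183b, Gm19935, Lrriq1, Fam92b, Zfp474, Spata18, Dcdc2a, Gm867, Cfap58, Efcab10 and AU040972. D430036J16Rik and AU040972 are annotated as antisense RNAs, and whether the counting used strand is not given in the sources used here, so their reads cannot be told from those of overlapping genes.

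The promoters of the leading and axoneme genes were read because RFX factors and FOXJ1 act on them. The sequences are RefSeq's, build GRCm38.p6 (mm10), 100 bases up to the base before the gene start, written 5′ to 3′ on the strand of the gene. Capitals mark the letters GTTGCC, an arm of the X-box that RFX factors bind. The 5 are shown because they hold this arm within 100 bases of the start in 3 leading genes and in 2 axoneme genes, Enkur (a protein inside the doublets) and Iqca (dynein regulatory complex). They lie at chr10:103236323-103236422 (minus strand, Lrriq1), chr14:13670776-13670875 (plus strand, Sntn), chr11:58801961-58802060 (minus strand, Fam183b), chr2:21205366-21205465 (minus strand, Enkur) and chr1:90153437-90153536 (minus strand, Iqca).
Lrriq1: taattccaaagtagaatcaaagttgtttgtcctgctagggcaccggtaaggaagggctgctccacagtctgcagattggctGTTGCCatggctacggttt
Sntn: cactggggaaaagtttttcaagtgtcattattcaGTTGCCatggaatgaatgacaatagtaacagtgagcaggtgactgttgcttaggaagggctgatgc
Fam183b: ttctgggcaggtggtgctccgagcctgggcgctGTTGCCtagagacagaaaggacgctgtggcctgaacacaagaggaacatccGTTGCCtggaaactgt
Enkur: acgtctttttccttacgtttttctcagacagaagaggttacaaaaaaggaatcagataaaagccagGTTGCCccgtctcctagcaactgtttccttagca
Iqca: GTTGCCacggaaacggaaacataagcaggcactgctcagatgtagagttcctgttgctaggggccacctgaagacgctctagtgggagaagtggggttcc

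The first motif base lay 19 bases before the start in Lrriq1, 66 in Sntn, 34 in Enkur and 100 in Iqca, and Fam183b held 2 copies. A gene was counted if any of its promoters held the letters, over 300 bases (250 before to 50 after the start) and both strands. GTTGCC was found in 43.7% of the 103 axoneme genes matched, of 127, and in 40.5% of 37 intraflagellar transport and BBSome genes. It was found in 9 of 60 nuclear genes of oxidative phosphorylation, and in 14.1% of all 27025 genes. Among the leading genes, 16 of 20 had a promoter in the table and 7 of these held it (43.8%). The longer GTTGCCA, which contains GTTGCC, was in 21.4% of the axoneme genes and 5.02% of all. TGTTTA, the core that forkhead factors such as FOXJ1 bind, was in 16.5% of the axoneme genes and 8.11% of the intraflagellar transport and BBSome genes. It was in 3 of 60 oxidative phosphorylation genes, 5 of 16 leading genes (31.3%) and 15.1% of all genes. These are matches of letters and not measured sites.

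Genes of ciliary assembly were described by lists. The 6 lists of the axoneme and its assembly (outer arm, inner arm and regulatory complex, radial spoke, central pair, doublet inner proteins and tektins, assembly factors) held 127 genes of the matrices, of which 118 passed edgeR's filter on low counts. Their median level in members was 184 times that in other cells. Intraflagellar transport and BBSome genes, which primary cilia of many cells also use, were at a median of 10.9 times, and nuclear oxidative phosphorylation genes at 1.36 times. Genes that present antigen were low: the 17 tested MHC genes were at a median of 0.0921 times. B2m, the light chain of MHC class I, was at 119, 124, 129 and 130 CPM in members and at 1839 to 2137 CPM in other cells.

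**Figure D1:**
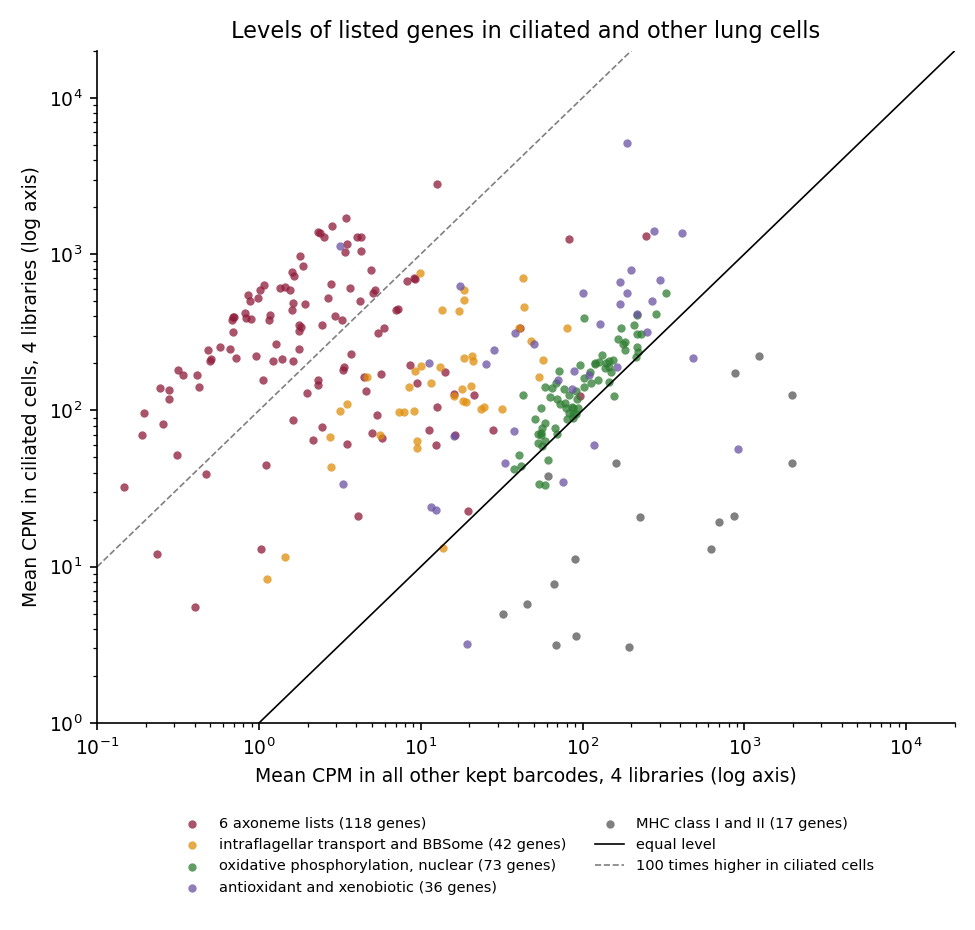
Mean CPM over the 4 libraries in ciliated cells (vertical log axis) against all other kept barcodes (horizontal log axis), 1 point per gene, for 5 groups of listed genes; the solid line marks equal levels and the dashed line a level 100 times higher in ciliated cells. Most of the 118 axoneme genes lie near or above the dashed line, nuclear oxidative phosphorylation genes lie along the solid line, and most MHC genes lie below it.

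Regulators of multiciliogenesis divided into those still read in these cells and those near 0. Rfx3, a transcription factor of ciliary genes, was at 499, 499, 528 and 507 CPM, against 69.9 to 73.4 CPM in other cells. Myb, which acts in the commitment to many cilia, was at 213, 176, 178 and 199 CPM, against 3.33 to 4.55 in other cells, and 94.9% to 99.0% of members had a UMI of it, against 1.83% to 2.65% of other cells. Trp73, a p53 relative needed for multiciliated cells, was at 122, 114, 118 and 121 CPM, against 0.389 in other cells. Deup1, the scaffold of the deuterosome, was at 66.6, 71.4, 70.2 and 84.1 CPM and was found in 69.2% to 80.4% of members, against 0.419% to 0.470% of other cells. At an equal depth of 3000 UMIs per cell, 13.9% to 17.9% of members had a Deup1 UMI and 38.0% to 49.0% a Myb UMI. In contrast, Mcidas was found in 0.855% to 1.28% of members, Cdc20b in 0% to 1.28%, Gmnc in 0% to 2.53% and Foxn4 in 1.71% to 3.85%. Ccno was at 10.7, 9.29, 9.58 and 8.21 CPM, in 19.2% to 25.8% of members against 3.98% to 5.09% of other cells. Plk4, the kinase that starts centriole formation, was at 8.88, 12.8, 6.38 and 5.48 CPM, close to its 9.21 to 10.6 CPM in other cells. The proliferation gene Mki67 had too few UMIs to test.

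Some secretory and detoxifying genes were also read in nearly every member, though not the whole club list. Of that list, Scgb3a2 was found in 26.5% to 33.5% of members, Cckar in 34.6% to 38.1% and Pigr in 19.2% to 48.7%, and Gabrp and Chad in 2.53% or fewer. Cyp2f2, a cytochrome P450 known from club cells, was at 1292, 1713, 1267 and 1317 CPM, against 5.23 to 13.6 CPM in other cells. It was found in 97.4% to 99.0% of members and in 1.30% to 3.48% of other cells, and at 3000 UMIs per cell still in 91.4% to 93.8% of members. Cbr2, a carbonyl reductase of airway epithelium, was at 5204, 6092, 4668 and 4538 CPM, against 88.7 to 271 in other cells. Scgb1a1, the main secreted protein of club cells, was found in 95.9% to 98.3% of members, but also in at least 24.0% of other cells in every library, whose depth was lower. The goblet mucin gene Muc5ac and Bpifb1 had 0 UMIs in all 450 members, which allows a share of up to 0.667% of cells with a UMI, and the basal keratin gene Krt14 was at 0 in every library.

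The first comparison asked whether the share of ciliated cells differed with treatment. Ciliated cells made up 0.599% (95% Wilson interval 0.491% to 0.730%) and 0.953% (0.816% to 1.11%) of kept barcodes with BPTES, and 0.508% (0.407% to 0.634%) and 0.569% (0.475% to 0.682%) with DMSO. The means were 0.776% ± 0.250 and 0.539% ± 0.0433 (SD, n = 2 each), a ratio of 1.44. Both BPTES libraries lay above both DMSO libraries, but BPTES replicate 1 was within the intervals of the DMSO libraries. A two-sided exact permutation test over libraries gave p = 0.333, the smallest that 2 against 2 libraries can give. Without BPTES replicate 2, the difference of 0.237 percentage points shrank to 0.0603. Members divided by the kept barcodes without a Ptprc UMI, a ratio and not a share because the gate allows 1 Ptprc UMI, overlapped between groups, at 0.914% and 1.52% with BPTES and 0.799% and 0.925% with DMSO (exact permutation p = 0.667). The intervals cover counting error only, and a change in the share of another cell type moves this share too.

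**Figure D2:**
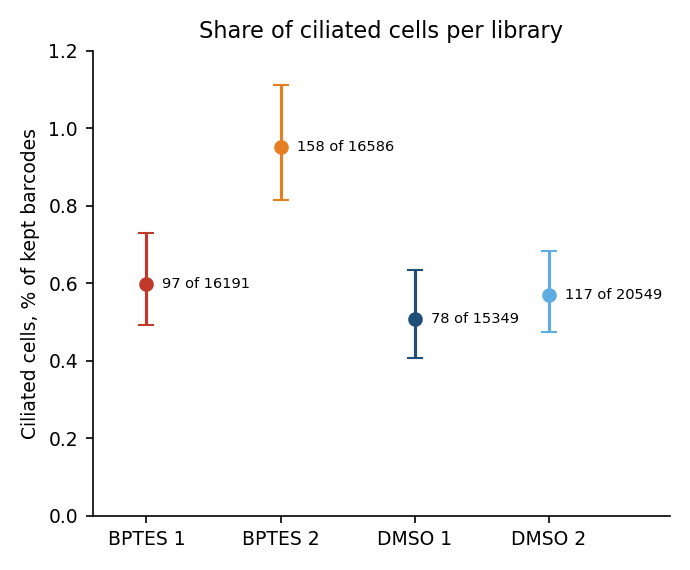
Ciliated cells as a percentage of kept barcodes in each library (vertical axis, from 0), with 95% Wilson intervals as bars and the numbers of cells beside each point. BPTES replicate 2 stands at 0.953%, and the other 3 libraries lie between 0.508% and 0.599% with overlapping intervals.

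The second comparison asked which genes differed between BPTES and DMSO within ciliated cells. UMIs of the members were summed per library and tested with edgeR's quasi-likelihood test, 2 libraries against 2. At a Benjamini-Hochberg adjusted p under 0.05, edgeR called 0 of 11997 genes (0%), and the smallest adjusted p was 0.123. At an unadjusted p under 0.05 there were 1124 genes (9.37%), 607 higher with BPTES (5.06%) and 517 lower (4.31%). DESeq2, run on 19514 genes without edgeR's filter on low counts, called 30 genes, 10 higher and 20 lower. Leaving out 1 library gave 16 calls without BPTES replicate 1, 29 without BPTES replicate 2, 0 without DMSO replicate 1 and 18 without DMSO replicate 2. A group left with 1 library was assumed to vary like the other group, here and in the interaction test. The gene differences of this comparison are given as values and not calls, except where an alternative is said to call a gene.

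The gene with the largest difference among the 12 named by smallest p was Parm1, which encodes a mucin-like membrane protein (chromosome 5, 91517615 to 91626894, GRCm38, GENCODE vM21). It was at 26.9 and 29.0 CPM with BPTES and at 1.37 and 3.83 CPM with DMSO, a log2 difference of 3.28 (SE 0.337, edgeR adjusted p = 0.123). Other cells were at 2.37 to 3.25 CPM in all 4 libraries. The rule that named the 12 genes required groups that do not overlap. Parm1 had a UMI in 22.7% and 23.4% of BPTES members and in 2.56% and 7.69% of DMSO members. The 2 richest members held 27.5% and 26.3% of its UMIs in the BPTES libraries. Without the 52 members rich in RNA of other lineages, defined below, the log2 difference was 3.14 and edgeR called it (adjusted p = 0.0259).

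Thbs1, the gene of the matrix protein thrombospondin-1, was at 283 and 259 CPM with BPTES and at 139 and 150 CPM with DMSO (log2 difference 0.90, SE 0.0872, edgeR adjusted p = 0.123). Other cells were at 584 and 741 CPM with BPTES and at 677 and 735 with DMSO, with groups that overlapped. Without members rich in RNA of other lineages the log2 difference was 0.66, and in the 41 members without candidate doublets, also defined below, it was -0.00173. Ppm1l, a protein phosphatase, was at 39.1 and 49.1 CPM against 15.5 and 16.2 (log2 difference 1.48, SE 0.179). Lypd6b, a membrane-anchored modulator of nicotinic receptors, was at 41.4 and 43.7 CPM against 20.1 and 20.5 (log2 difference 1.07, SE 0.142).

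The other genes named on the higher side, Sftpd and Eln, were like Thbs1 lower in members than in other cells. Sftpd, a surfactant protein of alveolar type 2 (AT2) cells, was at 45.3 and 34.0 CPM against 7.30 and 4.93 (log2 difference 2.73, SE 0.263, edgeR adjusted p = 0.123), with other cells at 336 and 287 CPM against 84.9 and 141. In BPTES replicates 1 and 2, 76.5% and 59.6% of its UMIs came from 2 members. Eln, the gene of elastin, was at 33.4 and 24.9 CPM against 5.02 and 7.94 (log2 difference 2.09, SE 0.278), and 91.2% and 75.4% of its UMIs in the BPTES libraries came from 2 members. Without the members rich in RNA of other lineages, the log2 difference of Sftpd was 1.23, and Eln no longer passed the filter.

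On the lower side, Rgs22, a regulator of G-protein signalling found in ciliated and sperm cells, was at 958 and 913 CPM with BPTES and at 1297 and 1228 CPM with DMSO (log2 difference -0.43, SE 0.0684, edgeR adjusted p = 0.312). It was 386 times higher in members than in other cells. Ppp2r3a, a regulatory subunit of protein phosphatase 2A, was at 205 and 180 CPM against 297 and 273 (log2 difference -0.57, SE 0.0932). Slc22a5, the carnitine transporter OCTN2, was at 34.9 and 34.2 CPM against 56.5 and 57.0 (log2 difference -0.72, SE 0.120). A830018L16Rik, at 298 times its level in other cells, was at 231 and 220 CPM against 299 and 325 (log2 difference -0.47). The Y-linked initiation factor gene Eif2s3y was at 48.5 and 47.2 CPM against 74.8 and 73.4 (log2 difference -0.63). In other cells both BPTES libraries, at 75.6 and 66.8 CPM, also lay below both DMSO libraries, the higher of which was at 90.1 CPM. AC149090.1, a gene without a named function, was at 1597 and 1425 CPM against 2310 and 2133 (log2 difference -0.56). Other cells had the same order without overlap, at 121 and 99.5 CPM against 141 and 167, and the interaction was -0.06 (edgeR adjusted p = 1).

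**Figure D3:**
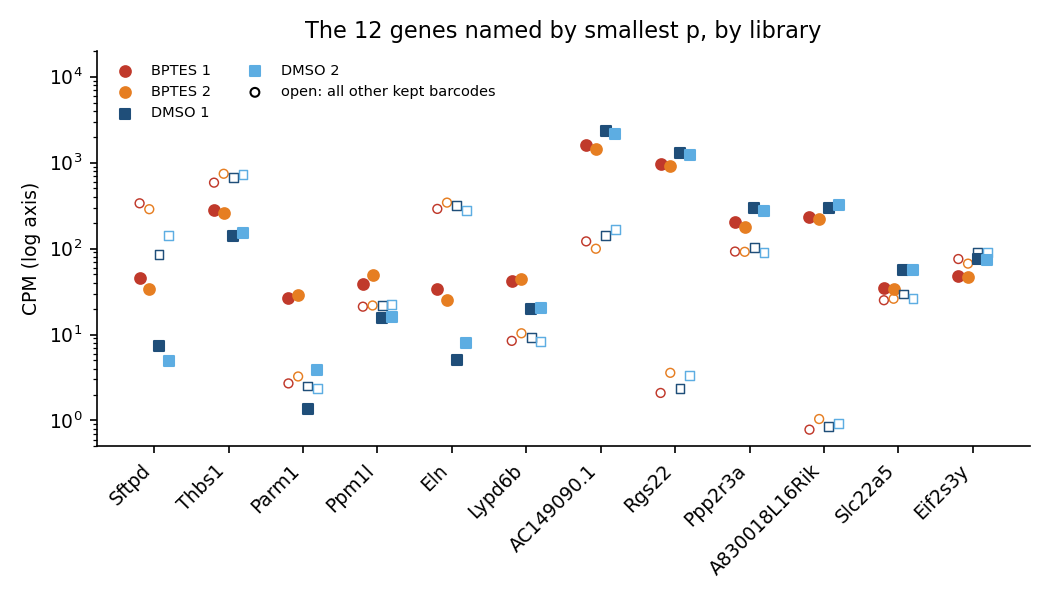
CPM (log axis) of the 12 genes named by smallest p in each library, BPTES as circles and DMSO as squares; filled symbols are ciliated cells and open symbols all other kept barcodes. Parm1 is at 26.9 and 29.0 CPM with BPTES and at 1.37 and 3.83 with DMSO, while Thbs1, Sftpd and Eln lie below their own levels in other cells.

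Of the axoneme genes, most had lower levels in the BPTES libraries, by a small amount at the median. The largest difference in size was that of Dnah14, a sparse gene at 8.28 and 6.69 CPM with BPTES and 25.5 and 7.67 with DMSO, where DMSO replicate 1 stood apart. Of the 118 tested in the 6 lists, 107 had a log2 difference below 0, with a median of -0.13, while 5703 of all 11997 genes lay below 0 and their median was 0.01. Libraries did not overlap, with BPTES lower, for 76 of the 118 (64.4%), against 18.4% of all genes tested. At an unadjusted edgeR p under 0.05, 35 were lower and 1 higher (4.31% and 5.06% of all genes), and none was called (smallest adjusted p = 0.353). The summed level of the 6 lists was 47104 and 46561 CPM with BPTES and 51237 and 52118 CPM with DMSO. These genes share the same cells and libraries and are not independent replicates.

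Among the 6 axoneme lists, that of the inner dynein arm and regulatory complex had the most members at a low p. Of its 32 tested genes, 31 lay below 0 (median -0.16), 21 had groups that did not overlap with BPTES lower (18.4% of all genes did), and 14 were lower at an unadjusted p under 0.05 (4.31% of all genes). Dnah12, an inner arm heavy chain, was at 2512 and 2440 CPM with BPTES and at 3200 and 3028 CPM with DMSO (log2 difference -0.33, SE 0.0626, edgeR adjusted p = 0.353). Dnah7c, another inner arm heavy chain, was at 767 and 747 CPM against 909 and 941 (log2 difference -0.29, SE 0.0656). Dnah7a and Dnah7b, its near copies, were at 555 and 535 against 605 and 664 CPM and at 512 and 515 against 602 and 626 CPM, and reads of the 3 may be split uncertainly. Dnah3 was at 1185 and 1144 CPM against 1357 and 1423. Dnah6 was at 1636 and 1515 CPM against 1744 and 1866.

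Among the outer arm genes, 10 of 15 lay below 0 (median -0.09). The heavy chain gene Dnah5 had overlapping groups, while Dnah9 was at 959 and 876 CPM against 1017 and 1008 and Dnah11 at 747 and 751 against 801 and 844, without overlap. The light chain gene Dynll2, used by dyneins and other proteins in many cells, was the 1 gene higher with BPTES at an unadjusted p under 0.05, at 79.9 and 83.3 CPM against 67.0 and 69.3. All 17 radial spoke genes lay below 0 (median -0.11), and 5 had an unadjusted p under 0.05 (4.31% of all genes were lower at that p), for example Cfap61 at 710 and 644 CPM against 767 and 765. Of 19 central pair genes, 18 lay below 0 (median -0.13) and 16 had groups that did not overlap with BPTES lower, against 18.4% of all genes. Spag17, a large central pair protein, was at 1282 and 1244 CPM against 1468 and 1492 (log2 difference -0.23, SE 0.0626, edgeR adjusted p = 0.424), but in the 41 members without candidate doublets its log2 difference was 0.00574. Hydin, whose loss causes hydrocephalus in mice, was at 1228 and 1223 CPM against 1400 and 1299.

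Of the doublet inner proteins and tektins, 17 of 19 lay below 0 (median -0.13), with Tekt2 at 153 and 124 CPM against 165 and 180 and Enkur at 460 and 477 against 533 and 533. Of the dynein assembly factors, 14 of 16 lay below 0 (median -0.14, and -0.09 without DMSO replicate 2), with Daw1 at 123 and 131 CPM against 151 and 148. Intraflagellar transport and BBSome genes had a median of -0.08, with 34 of 42 below 0, and of -0.03 without DMSO replicate 2 and -0.04 at 3000 UMIs per member. Basal body and tubulin genes had a median of -0.04, with 20 of 33 below 0. The tubulin genes had small differences: Tubb4b was at 1719 and 1705 CPM against 1751 and 1746, and Tuba1a at 2112 and 2047 against 2066 and 2018. Regulators of multiciliogenesis had a median of -0.01, with 11 of 21 below 0. Its sign turned without BPTES replicate 2 (0.03), without members rich in RNA of other lineages (0.03), at 3000 UMIs per member (0.04) and in the 41 members described next (0.19, 9 of 12 above 0).

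Depth per member and RNA of other lineages moved with treatment beside this pattern. With every member thinned to 3000 UMIs the median of the 6 axoneme lists was -0.10, and without members rich in RNA of other lineages it was also -0.10. It lay between -0.14 and -0.10 when each library was left out in turn. It was -0.05 in the 41 members left without candidate doublets, meaning those without 2 UMIs of each of at least 3 genes of any other-lineage list, with 59 of 100 testable genes below 0. These were 6 and 16 cells with BPTES and 10 and 9 with DMSO, and most other members were left out through the club list, whose leading genes nearly every member reads. The rule counted UMIs without regard to depth, so shallow members were more likely to stay. The 41 are therefore not the same class with doublets taken out. In them edgeR tested 3445 genes, against 11997 in all members. In the 41 members the median of the inner arm list was -0.00187 with 14 of 29 genes above 0, that of the doublet inner proteins was -0.00733 and that of the assembly factors -0.00791, 7 of 16 radial spoke genes lay above 0, and that of the intraflagellar transport list turned to 0.08 with 22 of 37 above 0.

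**Figure D4:**
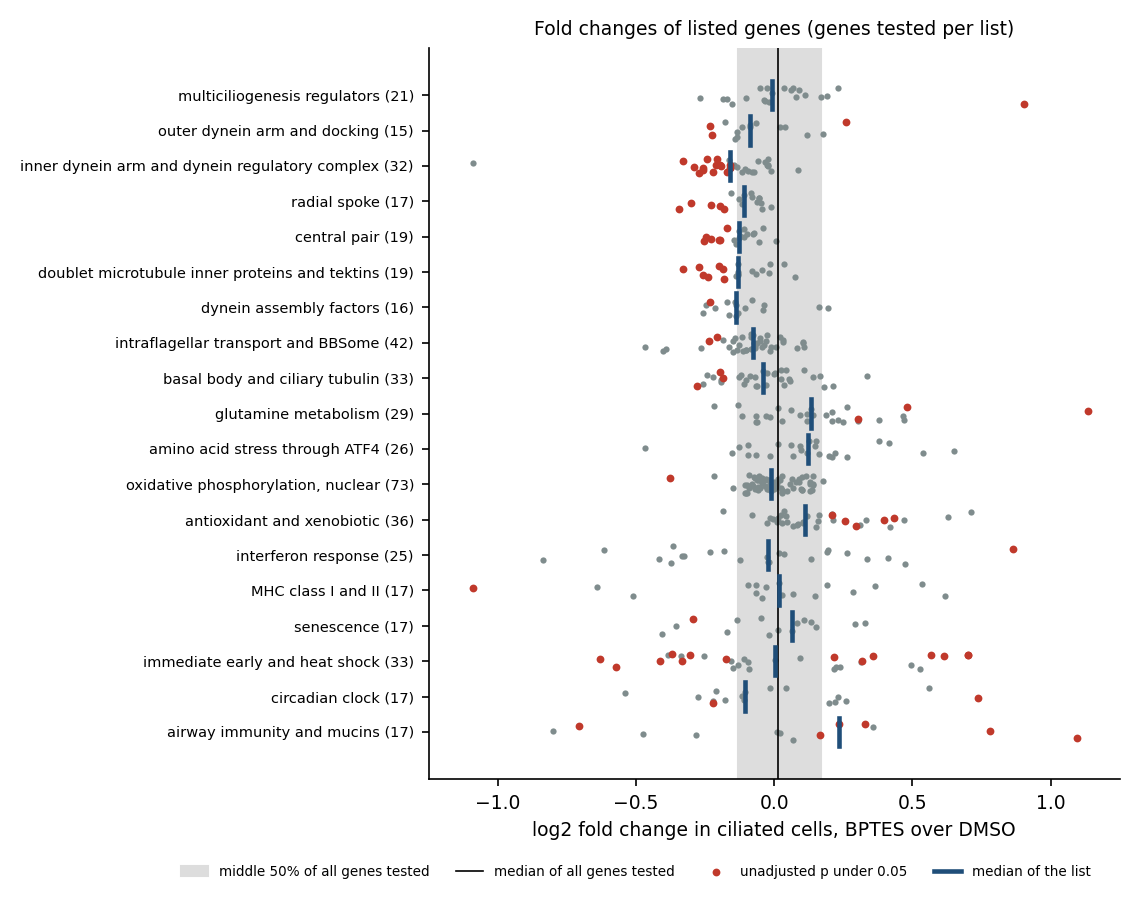
Log2 difference between BPTES and DMSO in ciliated cells (horizontal axis) for each tested gene of 19 lists, with the number of tested genes in brackets; blue bars are list medians, red points have an unadjusted edgeR p under 0.05, the grey band holds the middle 50% of all genes tested, and 11 genes lie beyond the axis. The inner dynein arm list has its median at -0.16 and 31 of 32 genes below 0, and the antioxidant list has its median at 0.11.

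Genes of glutamine use were examined because BPTES acts on it. Glul, which makes glutamine, was at 225 and 153 CPM with BPTES and at 150 and 165 CPM with DMSO, with groups that overlapped. Of 29 tested genes of the list, 21 lay above 0 (median 0.13), 9 had groups that did not overlap with BPTES higher (31.0%, against 21.3% of all genes), and none had the reverse. At an unadjusted p under 0.05 there were 3 of the 29 (10.3%), close to the 9.37% of all genes. They were Slc38a1, a glutamine transporter, at 74.6 and 69.3 CPM against 58.8 and 57.8, Gfpt1, the first enzyme of hexosamine synthesis, at 47.6 and 47.6 against 31.9 and 35.9, and Oat, ornithine aminotransferase, at 19.2 and 15.4 against 10.9 and 5.48. Gfpt1 had a log2 difference of 0.48 (SE 0.131, edgeR adjusted p = 0.424). At 3000 UMIs per member the median of the 17 genes of the list that could be tested was -0.00195, without DMSO replicate 2 it was 0.07, without DMSO replicate 1 it was 0.21, and in the 41 members it was -0.20 over 10 genes.

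Targets of ATF4, the transcription factor of amino acid shortage, had a median of 0.12 with 19 of 26 above 0 and 0 at an unadjusted p under 0.05 (9.37% of all genes). This direction did not hold at 3000 UMIs per member (-0.00932, 5 of 11 above 0) or in the 41 members (-0.53, 1 of 6 above 0), and without DMSO replicate 2 the median was 0.05. Asns, asparagine synthetase, was at 48.5 and 45.4 CPM against 45.1 and 52.3, and Atf4 itself at 70.4 and 78.3 against 73.4 and 69.8. Nuclear genes of oxidative phosphorylation had a median of -0.01, with 33 of 73 above 0. Omitting BPTES replicate 1 gave 0.03 (46 of 73 above 0), and omitting BPTES replicate 2 gave -0.05 (24 of 73 above 0). The 13 genes encoded in mitochondria had a median of 0.05 with 10 above 0. Cox6a1, a subunit of cytochrome oxidase, was the 1 nuclear gene at an unadjusted p under 0.05, at 187 and 177 CPM against 225 and 247. That is 1.37% of the 73 nuclear genes, below the 9.37% of all genes.

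Antioxidant and xenobiotic genes, which these cells read at a median of 2.52 times other cells, lay above 0 for 31 of 36 (median 0.11). Of the 36, 11 had groups that did not overlap with BPTES higher (30.6%, against 21.3% of all genes) and 5 were higher at an unadjusted p under 0.05 (13.9%, against 5.06% of all genes). Cbr2 had a log2 difference of 0.30 (SE 0.0829, edgeR adjusted p = 0.440), and Gsto1, a glutathione transferase, was at 201 and 246 CPM against 169 and 172 (0.40, SE 0.109). Prdx6, a peroxiredoxin, was at 451 and 645 CPM against 435 and 379, and Txn1, thioredoxin, at 511 and 580 against 453 and 462. BPTES replicate 2 was the highest library for each of these 4 genes, and without it the median of the list was 0.02. The median was 0.20 without BPTES replicate 1 and 0.20 in the 41 members. Nfe2l2, the gene of the regulator NRF2, was at 322 and 314 CPM against 320 and 312.

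Genes of airway immunity and mucins had a median of 0.23, with 13 of 17 above 0, 8 higher and 1 lower at an unadjusted p under 0.05 (5.06% and 4.31% of all genes). The median was 0.42 without DMSO replicate 2 and -0.08 in the 41 members, with 2 of 6 genes above 0. Pigr, the receptor that carries antibodies across the epithelium, was at 53.3 and 47.2 CPM against 16.4 and 28.7 (log2 difference 1.09, SE 0.234, edgeR adjusted p = 0.364), and other cells were at 0.643 to 2.60 CPM. Cp, ceruloplasmin, was at 443 and 523 CPM against 306 and 260 (log2 difference 0.78, SE 0.114, edgeR adjusted p = 0.312), but its log2 difference was -0.00729 in the 41 members. Muc4, a membrane mucin of ciliated cells, was at 120 and 137 CPM against 96.7 and 108. Cxcl15 and Chil1, which were 0.125 and 0.0873 times their level in other cells, were at 173 and 23.8 CPM against 1.82 and 8.21 and at 42.3 and 9.48 against 0.912 and 1.92, and both had their highest level in BPTES replicate 1. Wfdc2, a secreted protease inhibitor, was at 1727 and 1816 CPM against 1535 and 1624.

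Heat shock and immediate early genes went both ways: 9 of 33 were higher and 7 lower at an unadjusted p under 0.05 (5.06% and 4.31% of all genes), and the median was 0.00. The median was -0.19 without members rich in RNA of other lineages, -0.13 at 3000 UMIs per member, -0.12 without BPTES replicate 1 and -1.05 in the 41 members, with 20 of 26 genes below 0. The higher ones included the chaperone genes Dnajb1, at 130 and 141 CPM against 105 and 80.5, and Hspb1, at 118 and 115 against 89.8 and 92.3. The lower ones included Egr1, at 556 and 536 CPM against 711 and 699 (log2 difference -0.37, SE 0.0666, edgeR adjusted p = 0.353), and Klf2, at 299 and 241 against 383 and 415. Egr1 showed the same order in other cells, at 1158 and 1039 CPM against 1566 and 1246. Among clock genes, Per2 was at 67.2 and 86.4 CPM against 56.5 and 38.3 (log2 difference 0.74, SE 0.207), and the list's median was -0.11 with 7 of 17 above 0. That median turned to 0.05 without DMSO replicate 1 and to 0.04 without BPTES replicate 2, and was -0.02 with a replicate block. Interferon genes had a median of -0.02, but leaving out BPTES replicate 1 gave -0.29, leaving out DMSO replicate 2 gave -0.23 and leaving out DMSO replicate 1 gave 0.04. MHC genes had a median of 0.02, and it was -0.09 when BPTES replicate 1 was omitted and 0.13 when BPTES replicate 2 was. Ifitm1, an antiviral membrane protein, was at 224 and 139 CPM against 109 and 90.4 (log2 difference 0.86, SE 0.228, edgeR adjusted p = 0.424).

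Among senescence genes, Cdkn2a, which encodes the cell cycle inhibitor p16, had 0 UMIs in all 450 members, which allows up to 0.205 CPM over the 4 libraries together. Other cells were at 0.822 to 1.52 CPM. Cdkn1a, the gene of p21, was at 165, 173, 148 and 192 CPM in BPTES replicates 1 and 2 and DMSO replicates 1 and 2, with groups that overlapped. Cdkn2b, the gene of p15, was at 18.9, 13.9, 20.5 and 11.2 CPM, and at 4.95 to 5.93 in other cells. The list had a median of 0.07, with 10 of 17 above 0, and this sign turned without BPTES replicate 1 (-0.06), without members rich in RNA of other lineages (-0.01) and at 3000 UMIs per member (-0.12, 1 of 7 above 0).

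Among the leading genes, AU040972 and Zfp474 had the largest differences in size. AU040972 was at 1042 and 983 CPM with BPTES and at 707 and 554 CPM with DMSO (log2 difference 0.69, SE 0.116, edgeR adjusted p = 0.332). Its order was the same in other cells, without overlap, at 1.81 and 2.42 CPM with BPTES and 0.470 and 0.748 CPM with DMSO. Zfp474, a zinc finger gene, was at 221 and 225 CPM against 299 and 278 (log2 difference -0.37, SE 0.0755, edgeR adjusted p = 0.353). Of the 20 leading genes, AU040972 and Gm19935 lay above 0.

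RNA of marker genes of other lung cell types was present in the members, and for several lists it differed between libraries. The 7 alveolar type 1 (AT1) markers summed to 445 and 447 CPM in BPTES members and to 472 and 487 CPM in DMSO members. These genes were lower in other cells, at 365 and 314 CPM with BPTES and 228 and 271 with DMSO. Only 3 and 4 members with BPTES and 1 and 1 with DMSO had 2 UMIs of each of at least 3 AT1 markers. Whether members made this RNA themselves was not tested. The club list was also higher in members than in other cells in every library. The 8 AT2 markers summed to 2999 and 401 CPM in BPTES members and to 116 and 173 CPM in DMSO members, against 15003, 13957, 4697 and 7383 CPM in other cells of the same libraries. Sftpc, the surfactant protein that defines AT2 cells, was at 2397 and 262 CPM against 90.7 and 129 in members (log2 difference 3.57, SE 0.934, edgeR adjusted p = 0.424), and 92.0% of its UMIs in BPTES replicate 1 came from 2 members. The club list summed to 3749 and 11469 CPM against 2757 and 3464, and in BPTES replicate 2 83.2% of Scgb1a1 UMIs came from 2 members. The neutrophil list summed to 18.5 and 23.7 CPM against 48.1 and 36.8, where other cells had 1845 and 2097 against 3742 and 2800. S100a8, a neutrophil granule gene, was at 6.21 and 8.55 CPM in BPTES members and at a mean of 15.9 CPM ± 2.70 (SD, n = 2) in DMSO members (log2 difference -1.06, SE 0.284). The fibroblast list summed to 132 and 277 CPM against 492 and 236, with Dcn at 212 CPM in DMSO replicate 1 and at 4.94 to 16.4 CPM in the other 3. The smooth muscle and pericyte list summed to 166 and 24.6 CPM with BPTES and 4.58 and 9.06 with DMSO, without overlap, as for Eln. The macrophage and monocyte list summed to 382 and 109 against 39.4 and 59.0, also without overlap. Most of its UMIs in every library were of 1 gene, Lyz2, with 1236 and 517 UMIs against 57 and 165. In BPTES replicates 1 and 2, 84.6% and 44.3% of Lyz2 UMIs came from 2 members. No member in any library had 2 UMIs of each of at least 3 macrophage and monocyte markers. For the AT2 markers, 8 and 8 members did with BPTES and 0 and 2 with DMSO. The neuroendocrine gene Chga was at 0 in all members, and the basal gene Krt5 was at 0 outside BPTES replicate 1. The part of this RNA in the gene values above was not tested, except where values without these members are given.

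**Figure D5:**
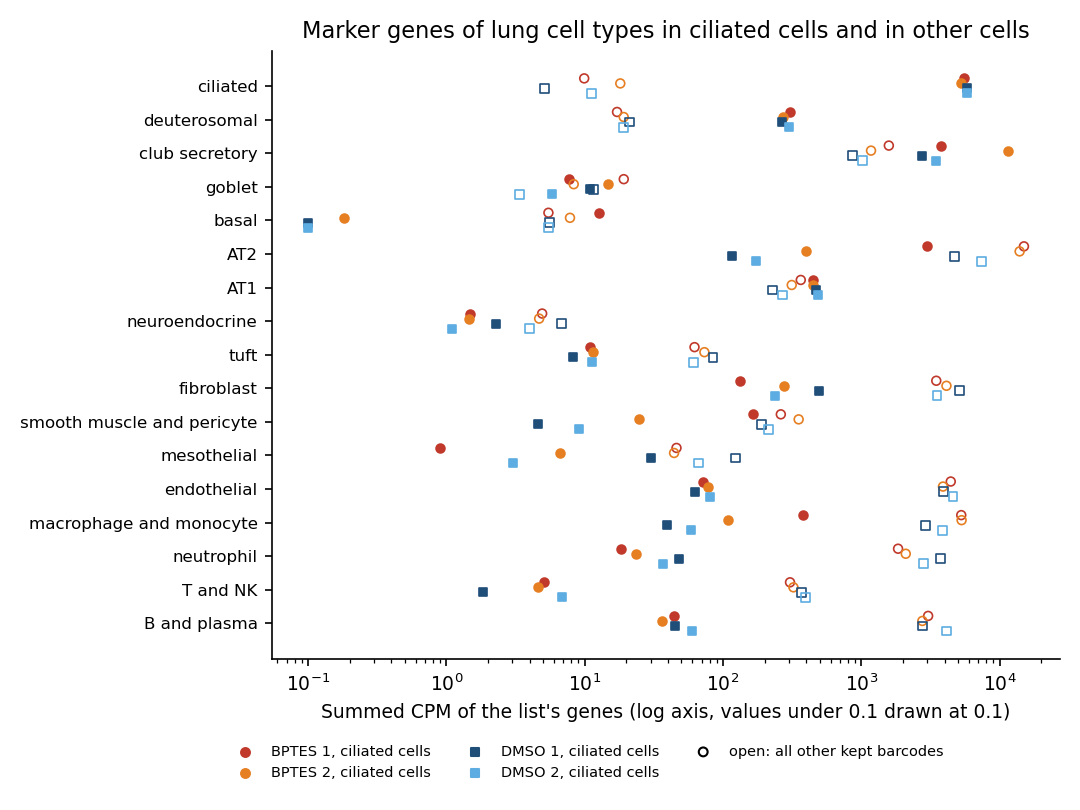
Summed CPM (log axis, values under 0.1 drawn at 0.1) of the marker genes of 17 cell types, in ciliated cells (filled) and in all other kept barcodes (open), 1 symbol per library. The ciliated list holds only gate genes, so its higher level in members was set by the gate. The deuterosomal, club and AT1 lists are also higher in members in every library. AT2 RNA in members is highest in BPTES replicate 1 at 2999 CPM, and club RNA in BPTES replicate 2 at 11469 CPM.

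Members rich in RNA of other lineages were counted as cells with at least 2 UMIs of each of at least 3 genes of 1 list other than the club list, or with over 1% of their UMIs from Scgb1a1, a rule chosen after the data had been seen. They numbered 52, 14 and 23 of them with BPTES and 6 and 9 with DMSO. With the club list included, 409 of 450 members met the rule, since Cyp2f2, Hp and Scgb1a1 were found in nearly all members. Without the 52, edgeR called 1 gene, Parm1, and the share of ciliated cells was 0.513% and 0.815% against 0.469% and 0.526% (exact p = 0.667).

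The third comparison asked whether the difference between BPTES and DMSO in ciliated cells departed from that in other cells of the same libraries. The interaction was tested with edgeR, with the library as a block. A gene could pass the filter on low counts through other cells alone, so 20692 genes were tested, against 11997 in members alone. The adjustment of p ran over all of them. Of the 20692, 1 gene was called (0.00483%). It was Cldn18, a tight junction gene of the lung epithelium (chromosome 9, 99689461 to 99717267), with an interaction of -1.47 on the log2 scale (SE 0.139, adjusted p = 0.0362). In members it was at 137 and 113 CPM with BPTES and at 126 and 158 CPM with DMSO, with groups that overlapped. In other cells it was at 71.3 and 65.6 CPM against 21.5 and 34.8. Cldn18 is itself in the AT1 marker list, and it was found in 30.8% to 42.7% of members. The summed AT2 and AT1 markers of other cells, given above, were in the same order, and their part in this call was not tested. Prr15l was next at -1.35 (SE 0.144, adjusted p = 0.0517), in members at 163 and 166 CPM against 157 and 170. The call of Cldn18 was lost without DMSO replicate 1 (interaction -1.29, adjusted p = 0.526) and without DMSO replicate 2 (-1.68, adjusted p = 0.0619). It was also lost with a gate of at least 3 of 6 genes, which added 13 barcodes (-1.37, adjusted p = 0.132). With club secretory barcodes in place of all other cells, 0 of 10892 genes were called. The interaction of Cldn18 was then -2.06 with a wider error (SE 0.989, edgeR adjusted p = 0.847). The club barcodes numbered only 18 and 15 with BPTES and 13 and 11 with DMSO. Their AT2 markers summed to 79867 and 84611 CPM against 1822 and 33742.

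Members also differed among themselves within a library. With each member thinned to 3000 UMIs, the variance over the mean across members was computed for 4426 genes with a mean of at least 0.1 UMIs in every library, and its lowest value over the libraries had a median of 0.932. Only 63 of these genes reached 2 in every library. Gm42418 led by its lowest ratio, with 62.3 to 119, while Malat1 had ratios of 8.41 to 12.5 and mt-Co1 of 5.26 to 8.18. Fos had ratios of 8.42 to 11.7, Jun 6.40 to 8.42 and Atf3 5.61 to 6.29, all 3 being immediate early genes. Fos was at a median of 6.52, 2.73, 10.6 and 5.75 UMIs per 10000 in BPTES replicates 1 and 2 and DMSO replicates 1 and 2, with 10% of members above 44.0, 37.9, 42.7 and 41.5. Cbr2 had ratios of 4.92 to 6.35, with a median of 48.5, 57.0, 42.4 and 39.1 UMIs per 10000. Scgb1a1 had ratios of 6.44 to 1242, the highest in BPTES replicate 2, where a single member held 38380 of its 49255 UMIs. The tubulin genes Tubb4b (2.34 to 2.66) and Tuba1a (2.14 to 2.72) were among the 63, and no dynein heavy chain was among the 60 genes with the highest ratios. Dnah12 was at medians of 24.8, 24.1, 30.5 and 28.9 UMIs per 10000, and the lowest 10% of members were below 14.8, 13.1, 17.6 and 16.1.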

How the data were processed

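The 4 libraries were single-cell RNA of digested lung. The authors deposited matrices of UMI counts, 1 per library, with the same 31054 features; per the submitters' processing notes they came from Cell Ranger 8.0.1 with build mm10. Other settings are not given in the sources used here. Counts were used as deposited. Barcodes were filtered and gated as described above, with no doublets removed and no clustering. The members and gene lists were chosen with earlier results of these data known.

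UMIs were summed per library over members and over other kept barcodes. The 6 gate genes, Ptprc and Cdh5 stayed in library sizes and out of the tests. edgeR 4.0.16 in R 4.3.3 was used (TMM, filterByExpr, glmQLFit and glmQLFTest, two-sided, Benjamini-Hochberg over all genes tested), and DESeq2 1.42.0 as an alternative. The script was tested on simulated data. Marker list sums are CPM of plain totals. Floors are 3 counts over the libraries together and cover counting error only. The remaining steps used Python 3.11.15 (scipy 1.17.1, pandas 2.3.3, matplotlib 3.10.9).

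Named genes were up to 6 per direction with the smallest unadjusted p, no overlap of groups and at least 10 CPM (no gene was called), the 3 most abundant genes of each list, 20 leading genes, Glul, Cdkn2a, Cdkn1a, Cdkn2b and the deuterosomal markers; other genes were named after their values were seen. Some items of these rules are not reported here. Coordinates come from GENCODE vM21 by identifier (129 of 130 genes found).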

Additional observations from a re-analysis of the deposited data

Results flagged for a closer look

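For Cldn18, ciliated cells and all other kept barcodes departed in the difference between BPTES and DMSO. The interaction was -1.47 on the log2 scale (edgeR, SE 0.139, adjusted p = 0.0362), as described above. The groups overlapped in ciliated cells and did not in other cells. Cldn18 was the 1 gene of 20692 for which edgeR's test of the interaction itself passed the threshold. The call was lost with a gate of at least 3 of 6 genes and with club secretory barcodes as reference.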

How the results depend on the processing

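The share of ciliated cells had a mean difference above 0 in every alternative tried, at 0.0603 to 0.414 percentage points when 1 library was left out. Without candidate doublets it was only 0.0125 points (exact permutation p = 1), with BPTES replicate 1 (0.0373%) below both DMSO libraries (0.0654% and 0.0440%). The count of genes called between BPTES and DMSO in ciliated cells, 0 with edgeR, was 1 at a mitochondrial limit of 5%, 1 without cells rich in RNA of other lineages (an alternative chosen after seeing the data), 7 without candidate doublets, 16 with cells thinned to 3000 UMIs, 30 with DESeq2, 469 without the filter on low counts, and 0 to 29 when 1 library was left out. It was 0 with a replicate block, with DESeq2's size factors in edgeR and with 3 or 5 gate genes. DESeq2 was also run without the filter on low counts, on 19514 genes, so its 30 stands against the 469 of edgeR. The count of genes whose difference departed from that in other kept barcodes, 1 with edgeR, was 0 with at least 3 of 6 gate genes, 2 at a mitochondrial limit of 5%, 2 at a limit of 20%, 20 without candidate doublets, 199 without cells rich in RNA of other lineages, 2 with DESeq2's size factors, 87 without the filter, 0 with club secretory barcodes as reference, and 0 to 286 when 1 library was left out. The cause was not tested.

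Without candidate doublets, which left 41 cells, the sign of the log2 difference turned for Thbs1 (-0.00173), Spag17 (0.00574), Cp (-0.00729) and Scgb1a1 (-0.93), and for 36 of 107 named genes in all. Without cells rich in RNA of other lineages, Scgb1a1 was at -0.15, and 8 of 123 named genes turned. The labels do not say whether the replicate numbers pair the libraries. The correlation of deviations of same-numbered libraries was 0.0664 over 9254 genes, and the replicate block turned 0 of 125 named genes. With 2 libraries per group, neither value can tell whether libraries were paired. A balanced block leaves the log2 differences almost unchanged in either case. Depth limits the rest: members per library numbered 78 to 158, and a gene at 0 UMIs in all of them could still be at up to 0.205 CPM.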
